A study of Mus musculus with 18 samples.

Results

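The Dlx genes encode 6 homeodomain transcription factors of the Distal-less family, and in the mouse they lie as 3 linked pairs, Dlx1-Dlx2, Dlx3-Dlx4 and Dlx5-Dlx6. All 6 were found among 49943 genes of the RefSeq table for GRCm38.p6, the assembly that mm10 stands for. For each gene, peaks of the histone mark H3K27me3 were taken that overlapped the gene span extended by 1 kb at each end (the gene window) by at least 1 bp, and such a gene is called marked. The values come from 12 CUT&Tag libraries, each of 1 mouse headfold at embryonic day 8.5. CUT&Tag cuts and sequences the DNA around an antibody-bound mark. The headfold is the anterior end of the embryo, from which the brain and face arise. All embryos were Gulo-/-, so they lacked the last enzyme of vitamin C synthesis. The 4 groups were B6 embryos without and with vitamin C, and 129S6.B6-Gulo-/- embryos (129 below) without and with it, supplied to the dams' water at 3.3 g/l. Each group had 3 libraries, from 2 female embryos and 1 male. By the codes in the labels, the B6 group with vitamin C came from 1 pregnancy, and each other group from 3.

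H3K27me3 is laid down by Polycomb repressive complex 2 and marks developmental genes that are silent in part or all of a tissue. The 2 genes of a Dlx pair are transcribed towards each other and are known to share enhancers that lie between them. Dlx1 and Dlx2 act in GABAergic neurons of the ventral forebrain and in the upper jaw, Dlx3 in placenta, hair, teeth and bone, and Dlx5 and Dlx6 in the lower jaw, limb, otic vesicle and bone. Dlx4, the partner of Dlx3, is expressed in the pharyngeal arches. Dlx genes are also early markers of the border of the neural plate and of cranial neural crest.

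Between 748 and 4726 peaks were called per library, over 3.58 to 31.7 Mb. Read depth is unknown, so signal was compared only by rank within a list. The 4 lists with the least covered length were B6 without vitamin C replicates 1 (3.58 Mb) and 2 (4.15 Mb), 129 without vitamin C replicate 2 (6.97 Mb) and B6 with vitamin C replicate 2 (8.69 Mb). Median peak width was 1322 and 1410 bp in B6 without vitamin C replicate 1 and B6 with vitamin C replicate 2, and at least 3930 bp in every other list. As each library is a whole headfold, fewer cells with the mark and less mark per cell cannot be told apart. Of 5 housekeeping genes, Gapdh, Hprt, Ppia and Tbp were marked in 0 libraries and Actb in 1. Among 5 genes of the anterior neural plate Rax was marked in 12 libraries and Six3 in 11, whereas Sox2 was marked in 2, Otx2 in 3 and Hesx1 in 0.

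The sequence at the starts of Dlx transcripts differed between the loci, and it is shown because the number of libraries with a peak differed there as well. A link between sequence and peaks was not tested. Of the 6 genes, Dlx1 and Dlx2 have an entry in the RefSeq promoter table for GRCm38.p6 (250 bases before to 50 after a start), as have the noncoding genes Dlx4os, Dlx6os1 and Dlx6os2. The Dlx1 window (chr2:71529195-71529494, plus strand) and the Dlx2 window (chr2:71546705-71547004, minus strand) follow, with CG dinucleotides in capitals.
Dlx1: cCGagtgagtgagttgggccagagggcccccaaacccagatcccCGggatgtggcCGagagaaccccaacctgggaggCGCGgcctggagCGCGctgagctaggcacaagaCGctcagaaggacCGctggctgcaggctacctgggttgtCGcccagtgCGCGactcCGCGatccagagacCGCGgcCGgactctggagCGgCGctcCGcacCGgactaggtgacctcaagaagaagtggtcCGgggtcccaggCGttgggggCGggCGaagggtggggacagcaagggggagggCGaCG
Dlx2: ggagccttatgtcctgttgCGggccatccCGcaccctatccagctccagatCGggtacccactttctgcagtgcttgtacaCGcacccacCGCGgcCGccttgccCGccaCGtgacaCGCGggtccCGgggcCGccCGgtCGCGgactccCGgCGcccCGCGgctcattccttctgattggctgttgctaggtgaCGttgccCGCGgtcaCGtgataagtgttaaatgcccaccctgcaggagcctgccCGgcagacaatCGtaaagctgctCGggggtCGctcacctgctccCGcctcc
The Dlx1 window holds 27 CG dinucleotides and the Dlx2 window 29, against a median of 7 over 32817 promoter windows of the same length. Fewer were found in 84.5% of windows than in that of Dlx1, and in 87.1% than in that of Dlx2. The Dlx1 window lay wholly under a peak in 12 of 12 libraries and the Dlx2 window in 9. Dlx6os1, the Evf noncoding RNA that is known to act on the enhancers between Dlx5 and Dlx6, has a start between those genes (chr6:6869484-6869783, minus strand) and one below Dlx6 (chr6:6861634-6861933, minus strand). In these the motif TAATTA, a core that homeodomain proteins can bind and that reads the same on both strands, is in capitals.
Dlx6os1 upper: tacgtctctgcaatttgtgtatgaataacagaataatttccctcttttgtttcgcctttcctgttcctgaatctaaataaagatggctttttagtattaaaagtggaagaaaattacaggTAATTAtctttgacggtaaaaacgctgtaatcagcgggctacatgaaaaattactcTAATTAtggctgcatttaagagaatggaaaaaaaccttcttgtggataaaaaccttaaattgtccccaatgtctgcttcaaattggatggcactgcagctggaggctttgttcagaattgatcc
Dlx6os1 lower: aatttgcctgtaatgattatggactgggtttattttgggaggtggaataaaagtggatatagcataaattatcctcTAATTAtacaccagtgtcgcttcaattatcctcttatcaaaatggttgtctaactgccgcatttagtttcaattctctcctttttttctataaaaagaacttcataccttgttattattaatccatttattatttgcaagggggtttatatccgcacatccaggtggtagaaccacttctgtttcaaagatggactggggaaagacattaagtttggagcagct
These windows hold 5 and 3 CG dinucleotides, and 2 and 1 copies of TAATTA, which 5.3% of all promoter windows hold. A peak touched the upper window in 3 libraries and the lower one in 8, and they lay wholly under a peak in 3 and 6. The windows of Dlx6os2 (10 CG) and Dlx4os (11 CG) were each wholly covered in 10 libraries. Over all genes, the 866 windows touched by a peak in at least 10 libraries had a median of 19 CG, and the others 7.

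The mark was present at all 3 Dlx pairs in most embryos. Dlx1 (chromosome 2, 71528113 to 71533981) and Dlx4 (chromosome 11, 95140447 to 95146294) were marked in 12 libraries, as were 2.18% of 21887 protein-coding genes, and Dlx2 (chromosome 2, 71543408 to 71546754) and Dlx3 (chromosome 11, 95120117 to 95125296) in 11. Dlx5 (chromosome 6, 6877801 to 6882068) and Dlx6 (chromosome 6, 6863334 to 6867970) were each marked in 10. Thus 6 of 6 members were marked in at least 10 libraries, against 5.93% of coding genes. With all lists cut to the same length, the 748 peaks of highest total signal, Dlx1 and Dlx4 kept 12 libraries, Dlx2 had 9, Dlx3 and Dlx5 8 and Dlx6 6. The library in which most members were absent was B6 without vitamin C replicate 2, whose list had no peak at Dlx2, Dlx3, Dlx5 or Dlx6. Dlx6 was also absent from B6 without vitamin C replicate 1, and Dlx5 from 129 without vitamin C replicate 2.

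**Figure D1:**
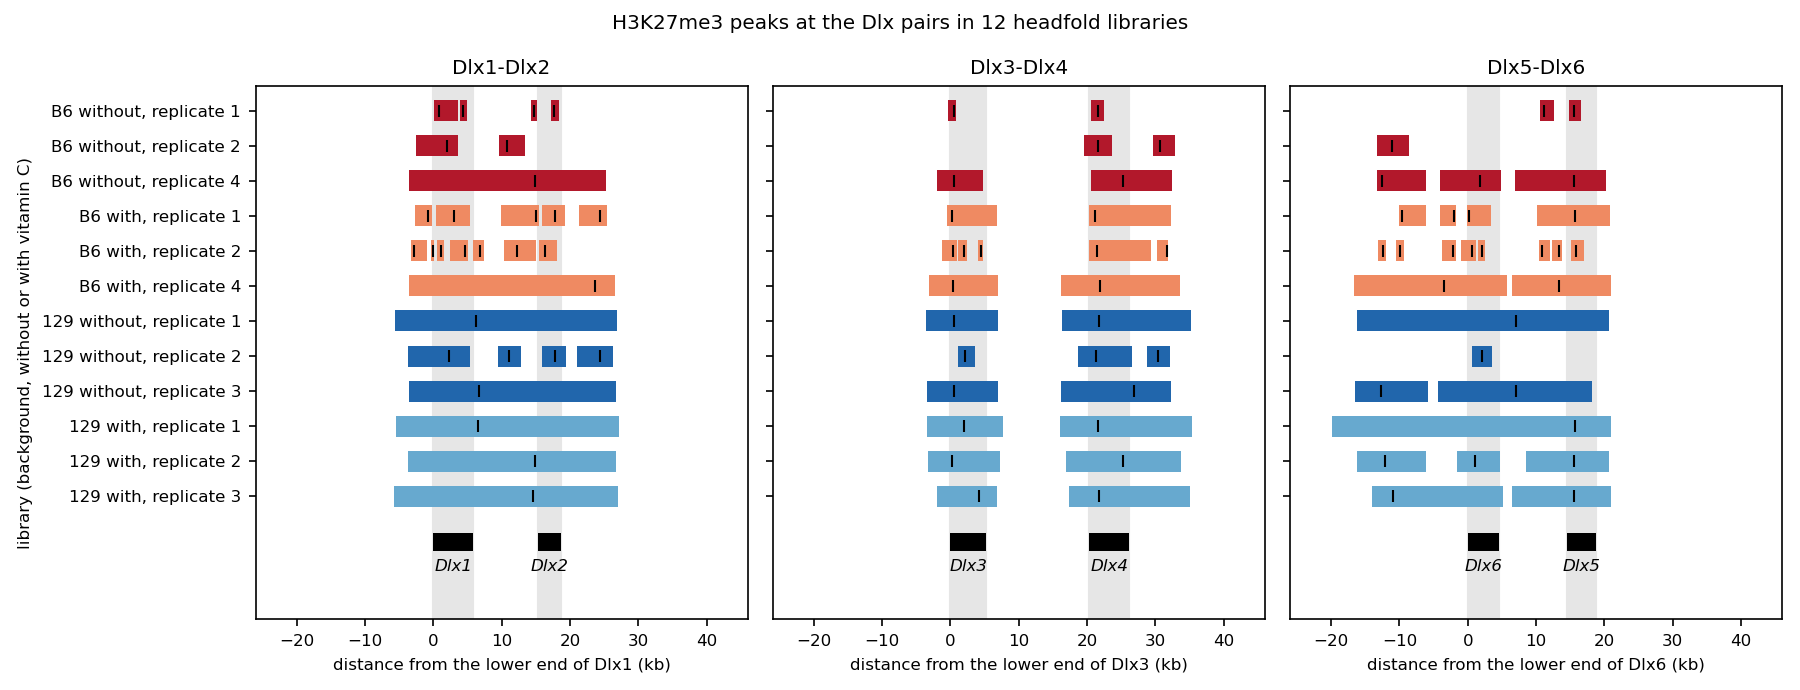
Peaks (bars) within 25 kb of each Dlx pair in the 12 libraries, plotted by distance in kb from the lower end of the first gene, with a black tick at the maximum signal of each peak and the genes in black below. Single peaks span Dlx1 and Dlx2 in 7 libraries and Dlx5 and Dlx6 in 3, and 8331 bp in the middle of the Dlx3-Dlx4 interval hold no peak in any library.

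The pairs differed in how the mark was laid out. Dlx1 and Dlx2, 9.43 kb apart, lay under 1 shared peak in 7 libraries. These peaks were 28.8 to 32.8 kb wide and filled the interval between the genes. The 7 were B6 without vitamin C replicate 4 (28.8 kb), B6 with vitamin C replicate 4 (30.2 kb), 129 without vitamin C replicates 1 and 3 (32.5 and 30.3 kb) and the 3 libraries of 129 with vitamin C (32.7, 30.4 and 32.8 kb). The other 5 lists had 2 to 7 separate peaks in the pair window. Dlx5 and Dlx6, 9.83 kb apart, shared a peak in 3 libraries, 129 without vitamin C replicates 1 and 3 (36.9 and 22.6 kb) and 129 with vitamin C replicate 1 (40.8 kb). None of the 6 B6 libraries had a peak across this pair, and shared peaks were also less frequent in B6 at other neighbouring genes (values below). In B6 without and with vitamin C, replicate 4 had 90.3 and 96.2% of the pair window covered, by 2 peaks each. With peaks less than 5 kb apart joined, Dlx5 and Dlx6 shared a peak in 7 libraries and Dlx1 and Dlx2 in 10.

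Dlx3 and Dlx4, 15.2 kb apart, shared a peak in 0 of the 11 libraries in which both were marked. This count was 0 too with peaks less than 5 kb apart joined, with windows of 0 and 2.5 kb, and with the other peak filters tried. The stretch from 95127844 to 95136174 (8331 bp) between the genes had no peak in any list, and it was the only such stretch within the 3 pair windows. For comparison, neighbouring coding genes 5 to 20 kb apart that were both marked in a library shared a peak in 24.4% of 1497 cases. In single libraries this share was 1.47 to 20.4% in B6 and 15.9 to 40.8% in 129. Of 59 such pairs marked together in at least 10 libraries, 57.6% shared a peak in at least 1 library, so the lack of a shared peak at Dlx3-Dlx4 was not unusual. A shared peak in at least 6 libraries, as at Dlx1-Dlx2, was found for 39% of the 59.

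**Figure D2:**
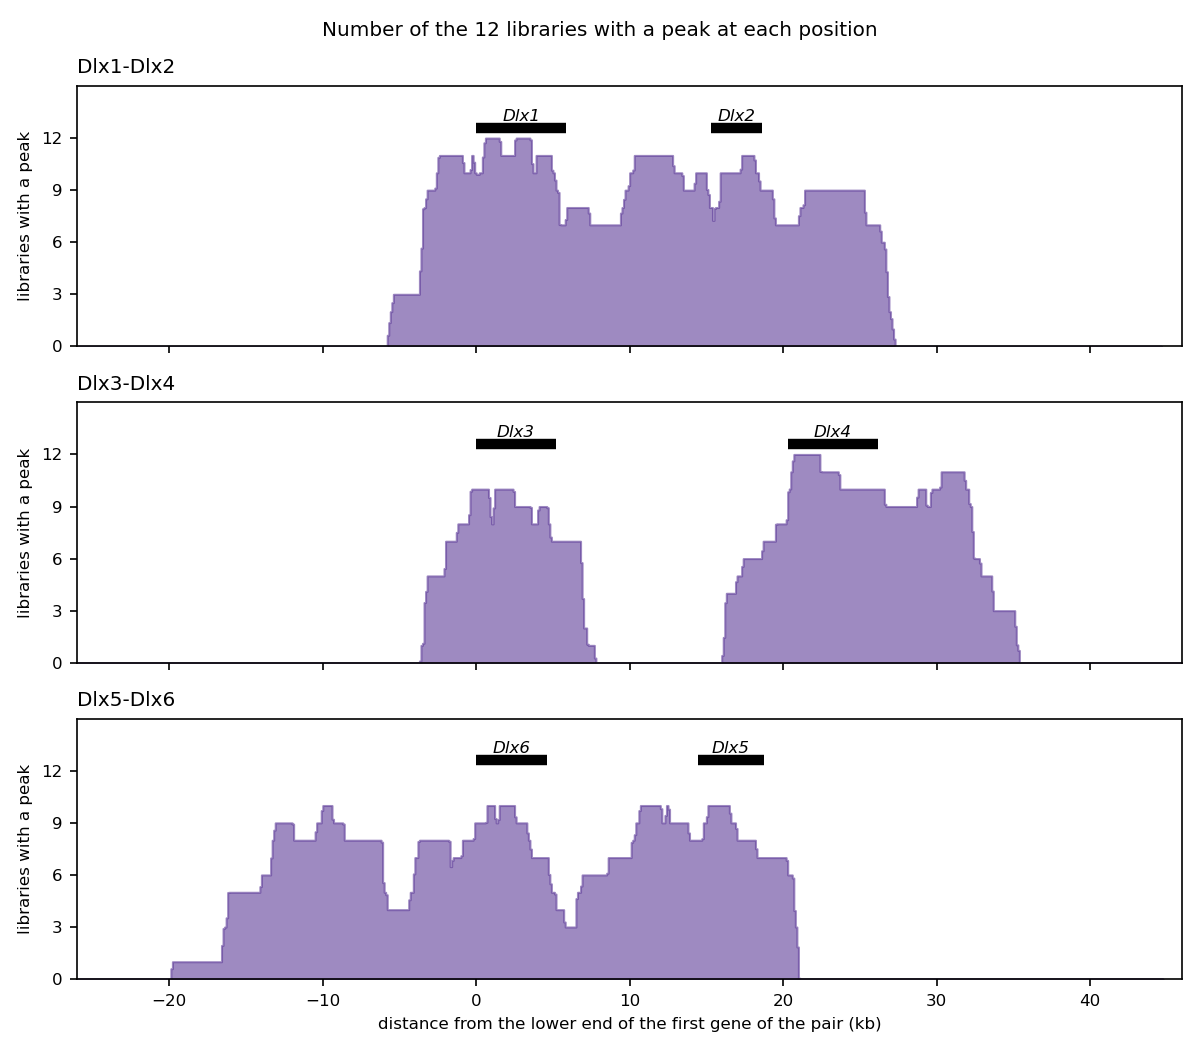
Number of the 12 libraries with a peak at each position around the 3 Dlx pairs, in bins of 100 bp by distance in kb from the lower end of the first gene, with gene spans as black bars. The count reaches 12 inside Dlx1 and Dlx4 and at most 10 at Dlx5-Dlx6, and it is 0 in the middle of the Dlx3-Dlx4 interval.

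Stretches covered in at least 10 libraries ran over 5049 bp at Dlx1, 3510 bp between Dlx1 and Dlx2, and 6298 bp at Dlx4, where they took in the whole gene. Those with the highest count were shorter. At Dlx1, the stretches from 71528640 to 71529693 (1054 bp), which holds the printed promoter window, and from 71530624 to 71531702 (1079 bp) were covered in 12 libraries. At Dlx4 this held for 95140754 to 95142518 (1765 bp), near the lower end of the gene. At Dlx5-Dlx6 the highest count was 10, reached inside Dlx6 (6864815 to 6865868), between the genes (6873963 to 6875415) and inside Dlx5 (6878398 to 6879889). The position of the maximum signal recurred between embryos at some genes. At Dlx4 the strongest maximum lay between 95141342 and 95141966 in 9 of 12 libraries, at Dlx3 between 95120359 and 95120686 in 8 of 11, and at Dlx5 between 6878860 and 6879034 in 6 of 10. At Dlx1 and at Dlx6 no 1 kb stretch held the maximum of more than 3 libraries, and at Dlx2 one held 5 of 11.

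Peaks reached beyond the genes, and farthest on the Dlx6 side. Below Dlx6, inside the span of Dlx6os1, they extended up to 19.9 kb, and the stretch from 6853263 to 6853954 was covered in 10 libraries. Above Dlx5 no peak reached farther than 2.27 kb. Above Dlx4, inside Dlx4os, 11 libraries had a peak over 95150405 to 95151967. Dlx1as, the antisense RNA of Dlx1, was marked in 12 libraries, as was the noncoding gene Gm38659 between Dlx3 and Dlx4. Dlx4os and Dlx6os1 were marked in 11 and Dlx6os2 in 10. H3K27me3 carries no strand, so peaks over overlapping genes cannot be assigned to one of them.

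The nearest coding genes outside the pairs were mostly unmarked. Hat1, Itga6 and Pdk1 around Dlx1-Dlx2, Pdk2, Tac4 and Kat7 around Dlx3-Dlx4, and Sem1, Slc25a13 and Sdhaf3 around Dlx5-Dlx6 were marked in 0 libraries. Itga3, 43.3 kb below Dlx3, was marked in 2. Metap1d, whose upper end lies 2.92 kb from Dlx1, was marked in 11, with a median of 2.28% of its window covered. Tac1, a neuropeptide gene 673 kb above Dlx5, was marked in 9.

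By rank within its own list, the strongest peak of a Dlx pair was high in most libraries, whereas other peaks of the pairs ranked from low to high. At Dlx1-Dlx2 in B6 with vitamin C replicate 2, for example, these other peaks lay at percentiles from 8.24 to 85.7 by total signal. The strongest peak of that pair by total signal lay at a median percentile of 98.2 over the 12 lists (range 77.5 to 99.5). In B6 without vitamin C replicate 4 it ranked 23 among 2395 peaks, in B6 with vitamin C replicate 4 it ranked 21 among 4320, and in 129 with vitamin C replicate 3 it ranked 27 among 2533. The median percentile was 94.7 at Dlx3-Dlx4 (range 32.2 to 99) and 91.2 at Dlx5-Dlx6 (11 lists, range 15.9 to 98.6). By maximum signal the medians were lower, at 91.8, 84.2 and 71.1 for the 3 pairs in the same order. Within a list, Dlx1-Dlx2 stood above Dlx3-Dlx4 by total signal in 10 of 12 lists and above Dlx5-Dlx6 in 9 of 11. Total signal sums over the width of a peak. The widest peak of each pair lay at median width percentiles of 98.1, 92.2 and 95, so these ranks hold width as well as height. Each rank is that of the strongest of up to 7 peaks, and other marked genes were not ranked for comparison.

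**Figure D3:**
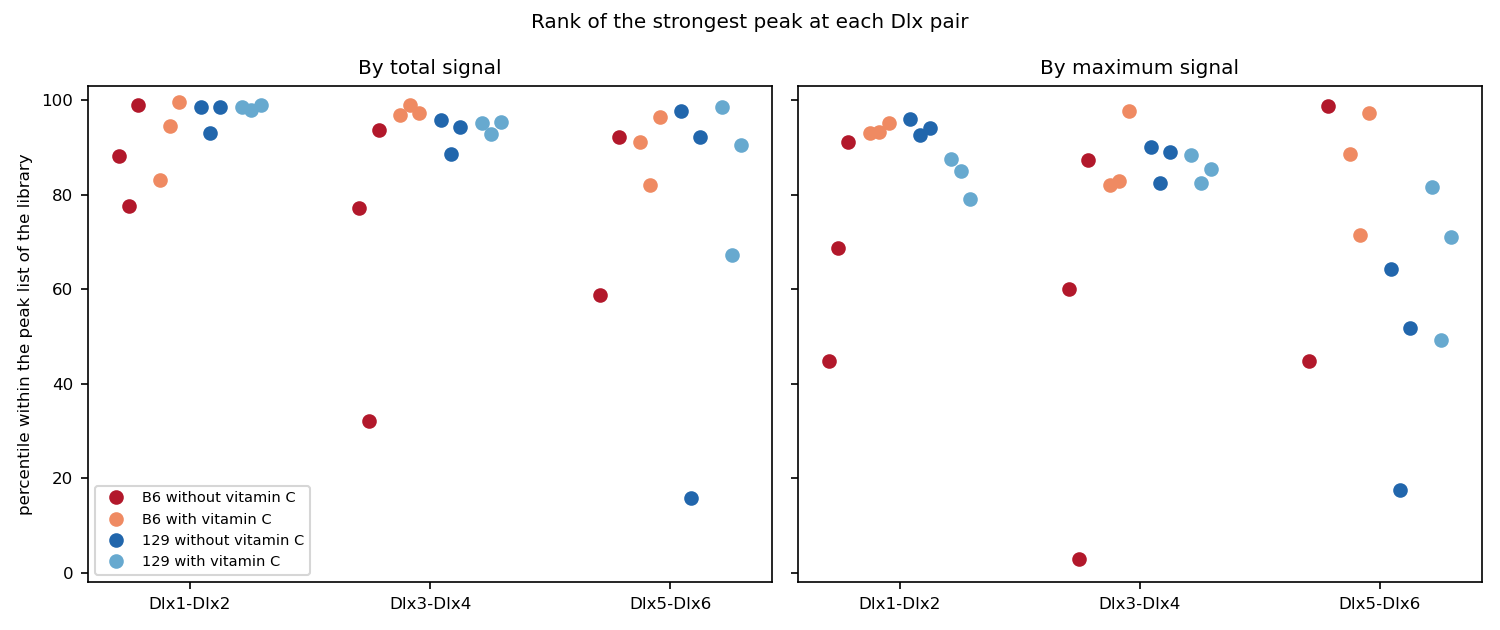
Percentile of the strongest peak at each Dlx pair within its own list, by total signal (left) and maximum signal (right), with 1 point per library coloured by group. Most points lie above 80 by total signal, and the lowest are from B6 without vitamin C replicate 2 at Dlx3-Dlx4 (32.2) and 129 without vitamin C replicate 2 at Dlx5-Dlx6 (15.9).

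The comparison of embryos without and with vitamin C asked whether the loss of the vitamin changed the mark. At all 6 Dlx genes the mean covered share was lower without vitamin C, a direction that turned at Dlx1, Dlx2 and Dlx4 when covered length was taken per Mb of list. The spread was wide, and no Dlx gene passed the test. At Dlx1-Dlx2 the covered length of the 20.6 kb pair window was 6.65, 8.42 and 20.6 kb in B6 without vitamin C, against 14.8, 13.2 and 20.6 kb in B6 with it. In 129 it was 20.6, 13.4 and 20.6 kb without and 20.6 kb in each library with vitamin C. At Dlx3-Dlx4 (28.2 kb) it was 3, 4.18 and 12.4 kb in B6 without vitamin C and 14.2, 10.9 and 19 kb in B6 with it. The B6 groups overlapped at both pairs. In 129 the values at Dlx3-Dlx4 were 18.8, 10.4 and 19 kb without and 19.8, 18.5 and 17.7 kb with vitamin C, so that these groups overlapped as well. At Dlx5-Dlx6 (20.7 kb) they were 3.72, 0 and 18.7 kb in B6 without vitamin C and 13.1, 8.29 and 19.9 kb in B6 with it. In 129 this pair had 20.7, 2.85 and 19.3 kb without and 20.7, 16.8 and 19.4 kb with vitamin C. Both comparisons overlapped here too. At each of the 3 pairs the 4 lowest values came from the 4 lists with the least covered length, 3 of which were from embryos without vitamin C. The values per Mb of list and with equal lists, given with the tests, bear on list length.

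Gene by gene, the share of the window under peaks was lowest in B6 embryos without vitamin C. Dlx3 was covered to 17.3, 0 and 79.3% in B6 without vitamin C, against 92.4, 56.7 and 100% in B6 with it, and to 100, 34.1 and 100% in 129 without, against 100% in each library of 129 with it. The groups overlapped in both backgrounds. Dlx4 was covered to 22.5, 53.3 and 85.1% in B6 without vitamin C and to 87.9, 87.4 and 100% in B6 with it, and these groups did not overlap. It was the only member of the 6 for which this held. In B6, 3.11% of 4924 genes tested showed that pattern and 0% the reverse. All 3 B6 libraries with vitamin C came from 1 pregnancy, so diet and pregnancy cannot be told apart in that comparison. In 129 none of the 6 members separated the diets (background 3.82% lower and 1.06% higher without vitamin C). Dlx5 was covered to 28.2, 0 and 100% in B6 without vitamin C and to 100, 36.4 and 100% with it, and to 100, 0 and 76.3% in 129 without, against 100% in each library with it. Libraries without vitamin C thus spanned the whole range at this gene. Dlx6 was covered to 0, 0 and 88.1% in B6 without vitamin C and to 52, 48.1 and 100% with it. In 129 it was covered to 100, 43 and 100% without and to 100, 85.9 and 93.3% with vitamin C, so the groups overlapped in both backgrounds. Dlx1 was covered to at least 57.9% in every library. Dlx2 was covered to 38.4, 0 and 100% in B6 without vitamin C and to 86, 63.2 and 100% with it, and to 66.6% in 129 without vitamin C replicate 2 and 100% in the other 5 libraries of 129.

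**Figure D4:**
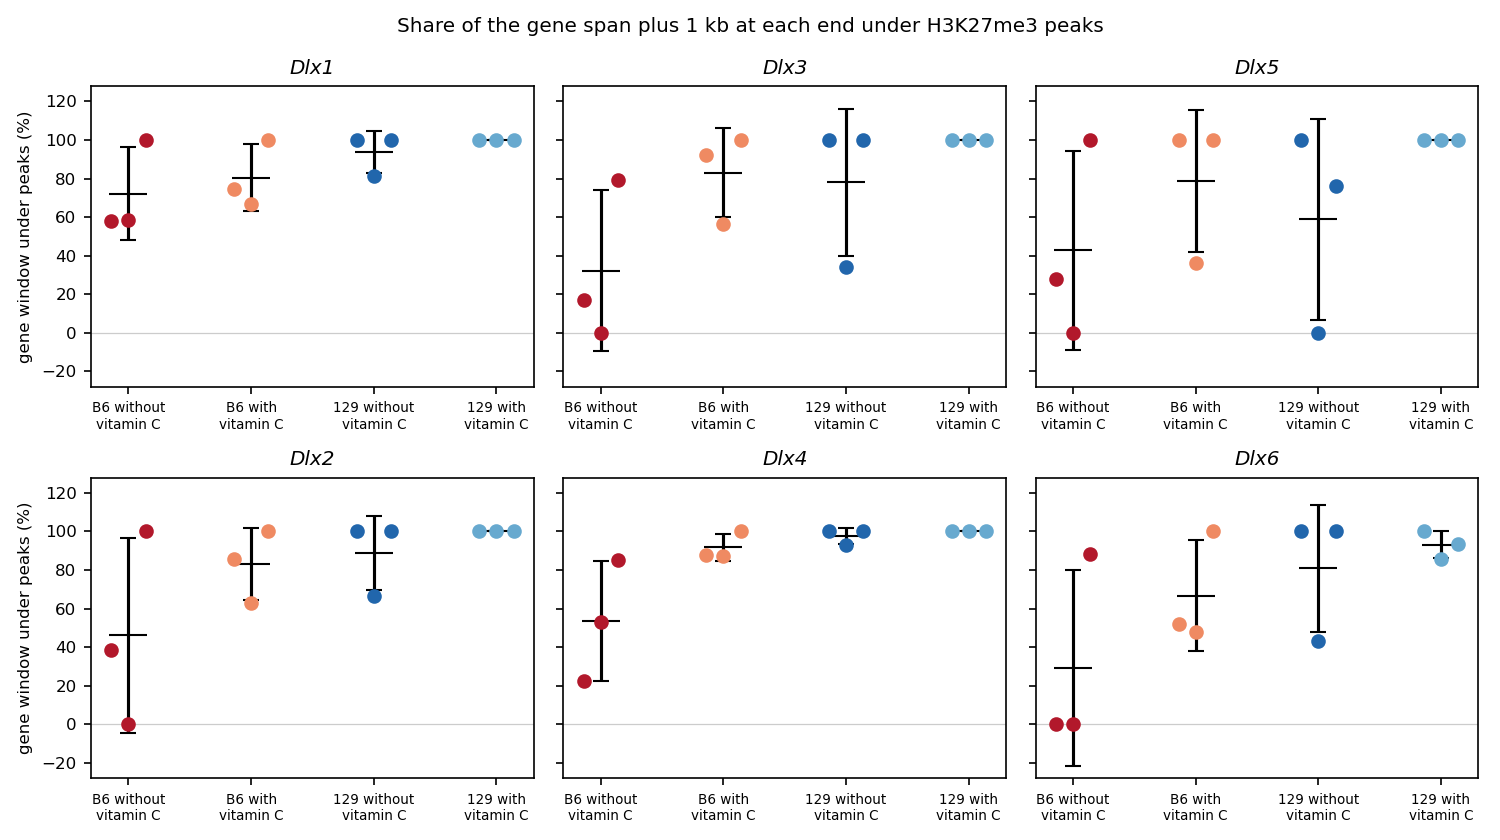
Share of each Dlx gene window under H3K27me3 peaks, in percent, with 1 point per library and the mean and SD of 3 libraries per group in black. B6 embryos without vitamin C have the lowest mean at every gene, and single libraries of that group reach 100% at Dlx1, Dlx2 and Dlx5. Per Mb of list the order of the diets turned at Dlx1, Dlx2 and Dlx4, and that of the backgrounds at Dlx1 to Dlx5.

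Over both backgrounds the difference without minus with vitamin C was -38.6 percentage points at Dlx5 (p = 0.11), -36.4 at Dlx3 (p = 0.1), -24.7 at Dlx6 (p = 0.225), -24 at Dlx2 (p = 0.25), -20.3 at Dlx4 (p = 0.05) and -7.32 at Dlx1 (p = 0.4), by exact two-sided permutation of diet labels within background. The adjusted p was 0.812 for each of them (Benjamini-Hochberg over the 4924 genes marked in at least 2 libraries). The permutation treats the 3 B6 embryos with vitamin C, which came from 1 pregnancy, as separate embryos. With embryos of 1 pregnancy averaged, 80 relabellings were possible. The exact permutation p was then 0.3 at Dlx5, 0.25 at Dlx3, 0.5375 at Dlx6, 0.625 at Dlx2, 0.375 at Dlx4 and 0.875 at Dlx1. None of the 6 Dlx genes was called. The smallest possible permutation p was 0.005, so over 4924 genes no gene could pass adjustment unless many others had low p as well. Over all genes tested 0 (0%) passed adjustment and 102 (2.07%) had an unadjusted p below 0.05. The sign was negative at all 6 members and at 83.9% of genes tested, and the median was -24.4 points over the members and -3.53 over all genes. When covered length was instead expressed per Mb of the whole list, the sign turned at Dlx1 (323 bp per Mb), Dlx2 (21.8) and Dlx4 (139). With every list cut to 748 peaks the difference was -0.856 points at Dlx6, -2.09 at Dlx1, -22.4 at Dlx2, -35.5 at Dlx3, -20.3 at Dlx4 and -37.3 at Dlx5.

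Counted as marked or not, Dlx5 and Dlx6 were each marked in 4 of 6 libraries without and 6 of 6 with vitamin C, and Dlx2 and Dlx3 in 5 and 6. Dlx1 and Dlx4 were marked in 6 of 6 on both diets. Fewer libraries without than with vitamin C was thus the pattern of 4 members, and of 61.1% of all genes tested. The exact permutation p was 0.4 at Dlx6 and 0.5 at Dlx5, and 1 at the other 4 (adjusted p = 1 for all 6), and 0.0203% of all genes had an unadjusted p below 0.05. Whether the backgrounds differed in their response was tested as the diet difference in B6 minus that in 129. It was -35.8 points at Dlx4 (exact permutation p = 0.2), -28.9 at Dlx3 (p = 0.5), -25.8 at Dlx2 (p = 0.55), -25.2 at Dlx6 (p = 0.465), -2.09 at Dlx1 (p = 1) and 5.16 at Dlx5 (p = 1). All 6 had an adjusted p of 1, and over all genes 0 (0%) passed adjustment and 5 (0.102%) had an unadjusted p below 0.05.

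**Figure D5:**
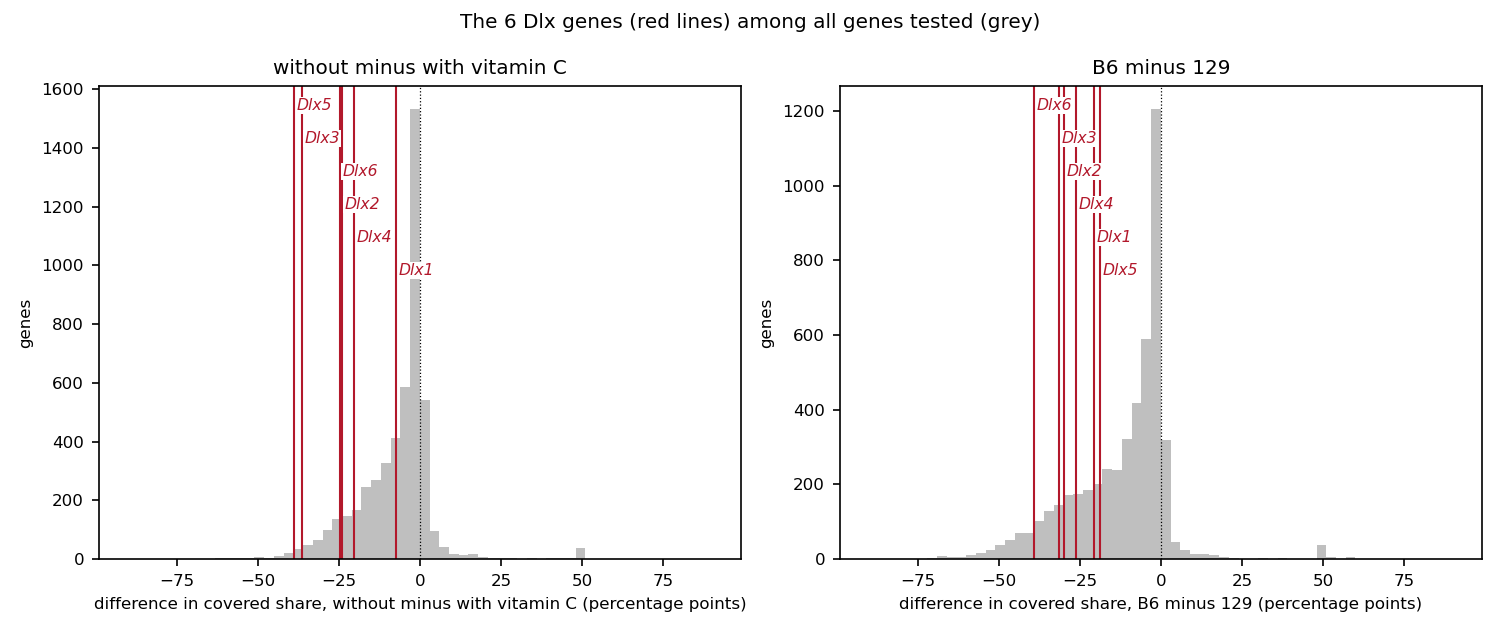
Difference in covered share without minus with vitamin C (left) and B6 minus 129 (right), in percentage points, for the 4924 genes tested (grey) and the 6 Dlx genes (red lines). All 6 lines lie below 0, as do 83.9% of genes on the left and 89.8% on the right. Per Mb of list 3 of the 6 differences turned on the left and 5 on the right.

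The comparison of backgrounds, B6 against 129, gave a lower mean covered share in B6 at all 6 members, a direction that turned at Dlx1 to Dlx5 per Mb of list, and none passed adjustment. Averaged over both diets the difference B6 minus 129 was -39 points at Dlx6 (exact permutation p = 0.09, adjusted p = 0.28), -31.4 at Dlx3 (p = 0.1, adjusted p = 0.282) and -29.8 at Dlx2 (p = 0.11, adjusted p = 0.291). It was -26.1 at Dlx4 (exact permutation p = 0.02, adjusted p = 0.241), -20.6 at Dlx1 (p = 0.08, adjusted p = 0.264) and -18.6 at Dlx5 (p = 0.55, adjusted p = 0.653). Over all genes 0 (0%) passed adjustment and 827 (16.8%) had an unadjusted p below 0.05, so 1 of 6 members below that level, Dlx4, stood near the background. Dlx6 was marked in 4 of 6 B6 libraries and 6 of 6 of 129, Dlx2 and Dlx3 in 5 and 6, Dlx5 in 5 and 5, and Dlx1 and Dlx4 in 6 and 6 (adjusted p = 1 for all 6 in the exact permutation test of marked libraries). Fewer libraries in B6 was thus found for 3 members and for 60.2% of all genes tested, of which 0.731% had an unadjusted p below 0.05.

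Among genes known from the same tissues as the Dlx factors, some carried the mark in nearly every library and others in none. Of 28 genes of the pharyngeal arches and face, 20 were marked in at least 10 libraries, as were 15 of 23 genes of the ventral forebrain and GABAergic neurons and 12 of 26 genes of placodes, surface ectoderm, limb ridge and bone (5.93% of all coding genes). In 0 libraries were 2 arch genes (Ednra and Jag1), 3 forebrain genes (Maf, Meis2 and Zeb2) and 8 ectoderm genes. The 5 named here were chosen after their values were seen. In single libraries 2.97 to 17.1% of all coding genes were marked, so in each library most were unmarked. Marking was less frequent without than with vitamin C at 11 arch genes, more frequent at 3 and equal at 14. In the forebrain list these numbers were 9, 1 and 13, and in the ectoderm list 12, 1 and 13. Over the 4924 genes tested, which leave out genes marked in fewer than 2 libraries, 61.1% were marked less often without vitamin C and 8% more often. In none of the 3 lists did a member pass the diet test after adjustment, in either direction, or reach an unadjusted p below 0.05 in the exact permutation test. The median diet difference of the members tested was -10.7, -10.8 and -6.5 points in the 3 lists, against -3.53 over all genes.

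The genes named from these lists are among those with the largest diet difference in marked libraries. In the arch list Alx1, Bmp4 and Fgf8 were each marked in 4 of 6 libraries without and 6 of 6 with vitamin C. Bmp4 and Fgf8 encode signals of the arches and Alx1 a transcription factor of the face. In the forebrain list Isl1 was marked in 2 libraries without and 5 with vitamin C, and Gad2, an enzyme of GABA synthesis, in 4 and 6. In the ectoderm list Tfap2a, a neural crest and ectoderm factor, was marked in 3 and 6, the signal gene Bmp7 in 2 and 5, and Runx2, a factor of bone, and Sp6, a factor of teeth and skin, in 4 and 6 each.

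Genes whose covered share followed that of a Dlx pair most closely over the 12 libraries were found by Spearman correlation among genes marked in at least 10 libraries. For Dlx1-Dlx2 these were Hmx3 and Mesp1 (rho = 1 each), Gp5 and Otx1 (0.998 each) and Cryba2 (0.991), where 7 libraries tie at full coverage of the pair. For Dlx3-Dlx4 they were Sowahd (0.998), Prdm12 and Psmb8 (0.992 each), and Adrb1 and Gm5294 (0.984 each). For Dlx5-Dlx6 they were Meox2 (0.972), Paqr9 (0.967), Col1a1 (0.963), and Cyp26b1 and Prdm6 (0.958 each). All points share the libraries and their list lengths, and the median rho over all genes compared was 0.85, 0.866 and 0.808 for the 3 pairs.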

How the data were processed

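H3K27me3 was profiled by CUT&Tag in single Gulo-/- headfolds. Of 18 samples, 12 peak lists were used, and 4 IgG and 2 further H3K27me3 samples were not analysed here. Per the submitters' processing notes, Cutadapt, Bowtie2, Picard and SEACR were used with mm10. Versions, settings and peak-calling control: not given in the sources used here. The authors deposited 1 list per library, with total and maximum signal per peak as whole numbers and no scaling visible. It was used for ranks and filters inside 1 list.

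Replicates were numbered in accession order (1, 2 and 4 in B6). Covered share was the percent of the gene window (span plus 1 kb at each end, RefSeq GRCm38.p6, 1-based) under peaks. Each gene marked in at least 2 libraries (4924) was tested by exact two-sided permutation of diet within background, or of background within diet (400 relabellings, smallest possible p 0.005), with Benjamini-Hochberg adjustment and a threshold of 0.05. Within 1 background, 3 against 3 libraries cannot go below 0.1, and no test was made. In the main tests embryos of 1 pregnancy counted as separate libraries. The procedure was run on simulated data, and the outcome is not reported here. Depth is unknown, so no counting interval was given.

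Genes named are the 6 members, genes within and the 2 coding genes on each side of each pair, up to 4 genes per list with the largest diet difference in marked libraries, and the 5 genes most alike by Spearman correlation. Some genes that this rule names are not reported here. Genes named as examples outside this rule are the anterior neural and housekeeping genes and 5 list genes marked in 0 libraries. Members, lists and alternatives were chosen with earlier results of these data known. Alternatives varied the window, peak filters, list length, scale, overlap, permutation strata, pregnancy averaging, gene filter and libraries. Tools were SciPy 1.17.1, NumPy 2.4.6, pandas 2.3.3 and Matplotlib 3.10.9 in Python 3.11.15.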

Additional observations from a re-analysis of the deposited data

How the results depend on the processing

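No Dlx gene crossed the adjusted threshold, and the counts of genes called stayed at 0, in every test run under each alternative. The few relabellings set a floor on p, so a gene could not pass alone and these counts say little about single genes. Scaling per Mb of list was run for the 3 tests of covered share alone, and the 50% overlap for the 2 tests of marked libraries alone. For the diet and background differences in covered share, signs held at all 6 members under each alternative run for them except scaling to the list. Per Mb of list the diet difference was 323, 21.8 and 139 bp at Dlx1, Dlx2 and Dlx4, and the B6 minus 129 difference 287, 44.8, 26.4, 152 and 113 bp at Dlx1 to Dlx5. The diet difference in B6 minus that in 129 turned at Dlx1 to 349 bp per Mb on this scale, and with equal lists to 8.37 points at Dlx1 and 21.9 at Dlx2. At Dlx5 it was -8.77 points without the 2 libraries of short peaks. With each library left out in turn it ranged from -16 to 7.68 points at Dlx1, -52.7 to -2.7 at Dlx2, -52.4 to -12.8 at Dlx3, -51.5 to -20.2 at Dlx4, -24.2 to 26.5 at Dlx5 and -54.6 to -8.59 at Dlx6. The cause was not tested.

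Of the 6 members, 2 were marked in at least 10 libraries with equal lists and 3 with at least 50% of the window covered, which demand more of a peak by construction. With only peaks at or above their list median of maximum signal, Dlx6 was marked in 6 libraries and each other member in at least 10. Dlx5 and Dlx6 shared a peak in 6 libraries with a 2.5 kb window and in 7 with peaks under 5 kb apart joined. With single libraries left out, the diet difference ranged from -14.3 (without B6 without vitamin C replicate 4) to -2.44 (without B6 with vitamin C replicate 4) at Dlx1, from -37.5 to -12.5 at Dlx2, -48.2 to -25.4 at Dlx3, -28.2 to -12.5 at Dlx4, -53 to -24 at Dlx5 and -39.4 to -15.2 at Dlx6. The B6 minus 129 difference ranged from -27.6 to -17.1 at Dlx1, -43.3 to -18.3 at Dlx2, -43.2 to -23.4 at Dlx3, -34 to -18.3 at Dlx4, -33.3 (without 129 without vitamin C replicate 2) to -7.95 (without B6 without vitamin C replicate 2) at Dlx5 and -53.7 to -31.6 at Dlx6. Genes at an unadjusted p below 0.05 then numbered 35 (without B6 without vitamin C replicate 1) to 286 (without B6 without vitamin C replicate 4) for diet, and 456 (without 129 without vitamin C replicate 1) to 1593 (without 129 without vitamin C replicate 2) for background. No paired analysis was possible because, by the codes in the labels, no pregnancy was shared between groups. Depth limits what a missing peak in a short list can show.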
